A study of Mus musculus with 2 samples.

Results

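The reads of 4 microRNA (miRNA) families that are known from the nervous system, miR-9, miR-124, miR-129 and miR-138, were followed in small RNA of J1 mouse ES cells. J1 is an established embryonic stem cell line of mouse. The cells were adapted to gelatin-coated plates and kept with LIF and Knockout Serum Replacement, and they received 1 mM AICAR, an activator of AMP-activated protein kinase, or an equal volume of its solvent DMSO for 24 h. Each condition was sequenced as 1 library, so no spread between replicates can be given, and every p-value below compares these libraries, not the conditions. The DMSO library held 18870345 clean reads and the AICAR library 21091226, and pairs of values are given in this order. The members are 10 hairpin genes of the 1174 mouse miRNA hairpins searched, namely Mir9-1, Mir9-2, Mir9-3, Mir124a-1, Mir124a-2, Mir124a-3, Mir129-1, Mir129-2, Mir138-1 and Mir138-2. They were chosen by name, and a sequence tag was counted for a hairpin when it matched without mismatch. Of the 5 annotated symbols that start with Mir124, 2 (Mir1247 and Mir1249) are other miRNAs and were left out.

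A miRNA gene is transcribed as part of a longer RNA from which a hairpin is cut, and Dicer then frees a short RNA from its 5′ arm (5p) and its 3′ arm (3p). The loaded strand pairs with messenger RNAs mainly through its seed, bases 2 to 8 from the 5′ end, so a shift of the 5′ end by a single base gives another seed. In neural tissue, miR-124-3p is the hallmark miRNA of neurons and represses Ptbp1, a splicing repressor of non-neuronal cells. MiR-9-5p and miR-9-3p act in neural progenitors and target REST and its cofactor CoREST, which keep neuronal genes silent. MiR-138-5p acts at synapses and limits the size of dendritic spines, and the miR-129 arms are made in neurons of the brain. Several of these miRNAs are encoded by more than 1 gene, and copies that give the same mature sequence can be told apart only by tags that reach a base in which the hairpins differ.

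The most abundant tag of each of the 8 arms that carried most of the reads is printed here in DNA letters, since these are the molecules counted and the seed (in capitals) sets their targets.
miR-9-5p: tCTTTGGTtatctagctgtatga
miR-9-3p: tAAAGCTAgataaccgaaagta
miR-124-5p: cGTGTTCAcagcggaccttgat
miR-124-3p: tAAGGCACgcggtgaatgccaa
miR-129-5p: cTTTTTGCggtctgggcttg
miR-129-1-3p: aAGCCCTTaccccaaaaagtat
miR-129-2-3p: aAGCCCTTaccccaaaaagcat
miR-138-5p: aGCTGGTGttgtgaatcaggccg
MiR-129-1-3p and miR-129-2-3p share their seed, and the 6 other seeds are each different. None of the other miRNAs tested had the seed of any of these arms. Of the 10 arms with reads, 7 had a mature sequence in the RefSeq table (GRCm38.p6). The most abundant tag was identical to it for miR-9-5p, miR-129-2-3p and miR-138-5p. For miR-129-5p the most abundant tag was 20 nt and ended 1 base before the RefSeq sequence of 21 nt. For miR-9-3p it began 1 base after the RefSeq start, as described with that family.

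All 4 families were detected in both libraries. Their exact tags held 6238 reads with DMSO and 11705 with AICAR, or 0.286% and 0.353% of all reads on miRNA hairpins. Levels are given as RPM, reads scaled to 1000000 clean reads, of tags whose start lay at most 2 nt and whose end lay at most 4 nt from the most abundant tag. The arms are of similar length, but ligation and PCR can favour some sequences, so the order of levels between arms is that of the libraries. In the DMSO library miR-124-3p stood first with 255.2 RPM, followed by miR-129-2-3p (33.0), miR-9-5p (15.9), miR-129-5p (7.84), miR-138-5p (7.31), miR-9-3p (3.55), miR-129-1-3p (3.50) and miR-124-5p (2.28). The 95% Poisson intervals of miR-129-5p and miR-138-5p overlapped, and so did those of miR-9-3p with miR-129-1-3p and of miR-129-1-3p with miR-124-5p. In the AICAR library the order was miR-124-3p (407.0 RPM), miR-129-2-3p (80.2), miR-129-1-3p (24.2), miR-9-5p (13.9), miR-138-5p (13.2), miR-129-5p (8.01), miR-9-3p (4.55) and miR-124-5p (2.61). There only miR-9-5p and miR-138-5p had overlapping intervals among neighbours. Intervals and detection limits cover counting error only, since PCR reads without molecular identifiers are not independent molecules.

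**Figure D1:**
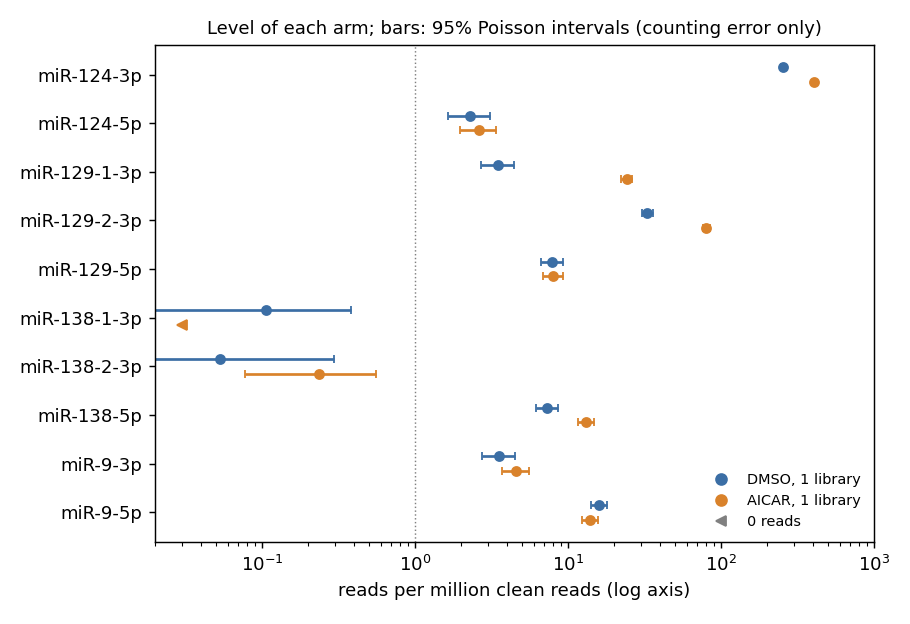
Level in RPM of the 10 arms with reads (log axis) with DMSO and with AICAR, 1 library each, with 95% Poisson intervals. MiR-124-3p is the highest arm in both libraries (255.2 and 407.0 RPM), and the miR-138 3p arms stay under 1 RPM, the dotted line.

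The comparison asks how the levels differed between the AICAR and the DMSO library. Of the 8 arms with at least 1 RPM, which all reached it in both libraries, 2 were up-regulated with AICAR, miR-129-1-3p and miR-129-2-3p, none was down-regulated and 6 were not past the thresholds. The thresholds were a fold change (FC, AICAR over DMSO) of at least 2 or at most 0.5 with p at most 0.01 from Fisher's exact test (two-sided), in which the reads of an arm were set against all other clean reads. Among all 529 miRNAs tested, 63 (11.9%) were up-regulated and 50 (9.45%) down-regulated. The study listed miR-129 3p arms as up-regulated in its sequencing of these samples, and it also reported miR-129 and miR-138 as increased by real-time PCR. These families were thus known from the study, so the count of arms is not independent evidence of a direction. The median FC of the 8 arms was 1.44, beside 1.11 over all miRNAs tested. At this depth small differences give small p-values, and whatever their FC 4 of the 8 arms and 320 of all 529 had p at most 0.01.

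The scale bears on these folds, since reads on hairpins made up 11.6% of the DMSO and 15.7% of the AICAR library. Relative to reads assigned to miRNAs the median log2 FC of all tested miRNAs moved from 0.15 to -0.30, and TMM scaling moved it to 0.02. The part of all calls that was up-regulated was 55.8% with clean reads, 16.2% relative to miRNA reads, 42.9% with TMM and 40.9% with median-ratio scaling. Under all 3 other scales miR-129-1-3p stayed past the thresholds, whereas miR-129-2-3p had an FC of 1.78 relative to miRNA reads. Tags under 21 nt made up 9.49% of the hairpin reads of the DMSO library and 3.81% of those of the AICAR library, and values without such tags are given below where they change a call.

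**Figure D2:**
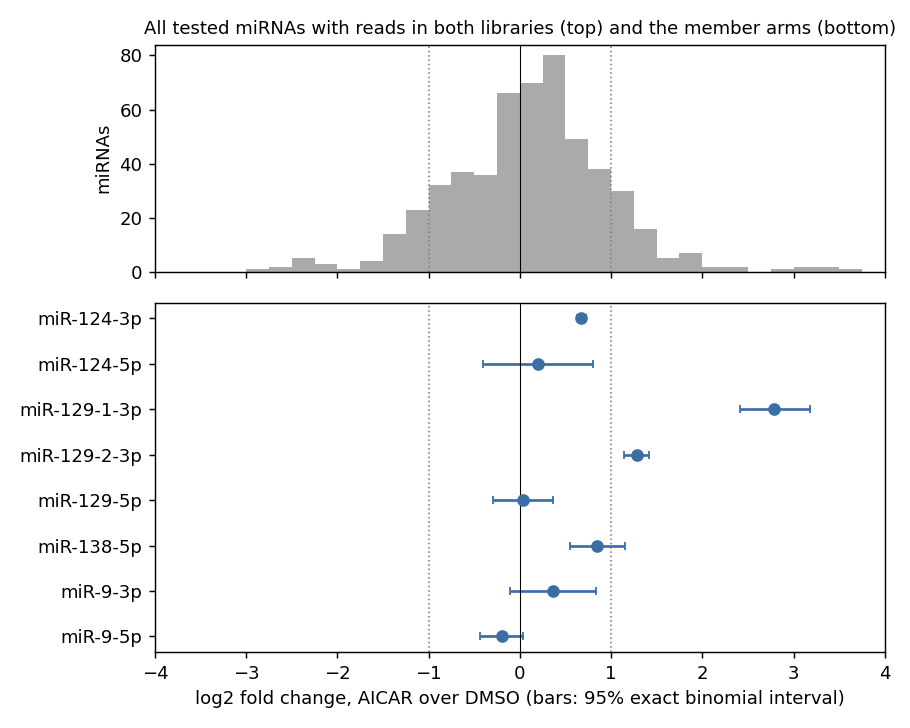
Histogram of the log2 fold change (AICAR over DMSO) of the tested miRNAs with reads in both libraries, above the log2 fold change of the 8 tested arms with 95% exact binomial intervals. Dotted lines mark FC 0.5 and 2. MiR-129-1-3p and miR-129-2-3p lie beyond FC 2 with their whole intervals, and the interval of miR-138-5p (1.46 to 2.23) crosses that line.

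MiR-124 was the most abundant family and held 77.9% of the reads of the 4 families with DMSO and 73.8% with AICAR. Its 3 hairpins lie in GRCm38 on chromosome 14 (64590657 to 64590741, plus strand, within an exon of Mir124a-1hg, a long non-coding RNA (lncRNA) gene), on chromosome 3 (17795662 to 17795770, plus strand, Mir124a-2, partly in an exon of Mir124-2hg) and on chromosome 2 (180894040 to 180894107, plus strand, Mir124a-3, partly in an exon of Gm27032). MiR-124-3p had 4815 reads with DMSO and 8584 with AICAR, an FC of 1.59 (95% exact binomial interval 1.54 to 1.65, Fisher's exact test BH-adjusted p = 1.5e-152). The interval lay below 2, and the arm was not past the fold threshold. Relative to miRNA reads its FC was 1.17, and 1.46 with TMM scaling. Its p was above 0.01 in edgeR's exact test at an assumed coefficient of variation of 0.2. The arm ranked 60 of the 529 miRNAs with DMSO and 53 with AICAR. MiR-124-5p, the strand that is mostly discarded, had 43 and 55 reads (FC 1.14, 0.754 to 1.75, adjusted p = 0.624). There were 112 reads of the 3p arm for each read of the 5p arm with DMSO and 156 with AICAR, and this difference did not pass Fisher's exact test (ratio of the FCs 1.39, 0.911 to 2.12, adjusted p = 0.113).

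No miR-124 read told the copies apart. All 16 tags counted for miR-124-3p and all 6 of miR-124-5p matched the 3 hairpins alike. After the 3p tag printed above, Mir124a-1 goes on with GAA and the other copies with GAG, and the tag that reached furthest, with 0 and 1 read, ended before the base that differs. The reads therefore do not say which of the 3 genes was their source. The 5′ end was nearly fixed, with 93.9% (95% Wilson interval 93.2 to 94.5) and 93.4% (92.9 to 93.9) of the miR-124-3p reads starting at the printed base. A start 1 base earlier, which shifts the seed, held 5.82% (5.19 to 6.51) and 6.44% (5.94 to 6.98), with overlapping intervals.
main 5′ end: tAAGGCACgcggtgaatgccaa
1 base earlier: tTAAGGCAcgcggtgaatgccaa
The earlier start had 200 and 436 reads on this 23-nt tag, beside 3945 and 7549 on the main tag.

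The 3′ end of miR-124-3p carried bases that none of the 3 hairpins has. Beside its exact reads, 3936 reads with DMSO and 9461 with AICAR held an exact stretch of the arm followed by 1 to 3 other bases. These were 45.0% (Wilson 43.9 to 46.0) and 52.4% (51.7 to 53.2) of the reads of the arm with additions included, and the intervals did not overlap. Added T alone (U in the RNA) made up 3663 and 8777 of these reads, and added A alone 150 and 369. The 4 most abundant such tags are printed with the added bases in capitals.
miR-124-3p tail 1: taaggcacgcggtgaatgccaT
miR-124-3p tail 2: taaggcacgcggtgaatgccaaT
miR-124-3p tail 3: taaggcacgcggtgaatgccaTT
miR-124-3p tail 4: ttaaggcacgcggtgaatgccaTT
The tail 1 tag had 1496 and 3720 reads, tail 2 had 923 and 2211, tail 3 had 882 and 1976, and tail 4, which starts 1 base earlier, had 164 and 302. Where the match to the hairpins stopped 1 base short of the printed end, most reads held a further base. With DMSO 2727 reads did and 184 did not (93.7%), and with AICAR 6456 did and 160 did not (97.6%). A stretch followed by A counts as reaching the printed end, so these shares leave such reads out. At the printed end itself 22.1% and 26.8% carried an addition.

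The same reads can be viewed by the base at each position of the 22-nt tag. At position 22, counted from the 5′ end, T stood in 27.4% of the DMSO and 33.0% of the AICAR reads, and A, the base of the hairpins, in 72.2% and 66.9%. At positions 18 to 21 no base other than that of the hairpins had more than 3 reads in a library. G at position 22 had 18 and 14 reads and C had 3 and 3. An added T after a tag that lacks the last A and an A-to-T change at that position give the same sequence and cannot be told apart, and no genome was searched for further copies. With these reads counted too, miR-124-3p had 8751 and 18045 reads and an FC of 1.84 (1.80 to 1.89), still below 2.

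Additions were common among the miRNAs of these libraries. Of 322 miRNAs with at least 100 reads in each library, the median miRNA had 8.10% of its reads with an addition with DMSO and 10.4% with AICAR, and 255 had a higher share with AICAR. MiR-124-3p ranked 25 with DMSO and 27 with AICAR from the highest share. MiR-129-5p (16.9% and 16.7%), miR-138-5p (8.61% and 9.45%) and miR-9-5p (6.81% and 7.28%) had shares whose Wilson intervals overlapped between the libraries. MiR-129-2-3p stood near the low end, with 1.74% and 1.17% (ranks 289 and 309). In miR-138-5p the added base was mostly A, with 12 and 19 reads of added A alone beside 1 and 6 of added T alone.

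**Figure D3:**
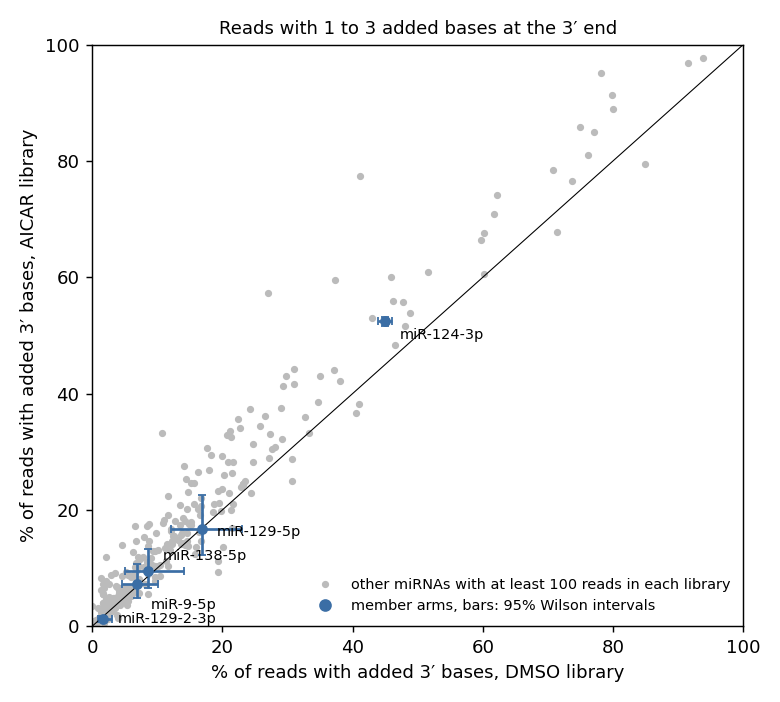
Percent of the reads of a miRNA that end with 1 to 3 bases not in its hairpins, DMSO library on the horizontal and AICAR library on the vertical axis. Grey points are the other miRNAs with at least 100 reads in each library, and blue points are the 5 member arms that meet this, with 95% Wilson intervals. MiR-124-3p lies above the line of equal shares at 45.0% and 52.4%, and the other 4 arms lie on or near it.

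The miR-129 arms had the ratios of FCs farthest from 1 among the 5 pairs of arms tested. Mir129-1 lies on chromosome 6 (29022619 to 29022691, plus strand, within an exon of the lncRNA gene Gm3294), and Mir129-2 on chromosome 2 (94241364 to 94241453, minus strand, in an intron of Mir670hg). Their 3p arms differ by C20T, where miR-129-2-3p is named before miR-129-1-3p and positions count from the 5′ end. The base that tells them apart is in capitals.
miR-129-2-3p: aagcccttaccccaaaaagCat
miR-129-1-3p: aagcccttaccccaaaaagTat
MiR-129-1-3p had 66 reads (3.50 RPM) with DMSO and 510 reads (24.2 RPM) with AICAR, and miR-129-2-3p had 623 and 1691 (33.0 and 80.2 RPM). Both were higher with AICAR, with FCs of 6.91 (5.34 to 9.08, adjusted p = 8.1e-75) and 2.43 (2.21 to 2.67, adjusted p = 5.8e-88) by Fisher's exact test. The call of miR-129-2-3p was lost relative to miRNA reads (FC 1.78) and in edgeR's exact test at an assumed coefficient of variation of 0.4 (p = 0.132), whereas miR-129-1-3p kept its call there (p = 0.00214). MiR-129-1-3p moved from rank 361 to 185 of the 529 miRNAs and miR-129-2-3p from 164 to 118.

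The copy that was scarce with DMSO differed most. There were 0.106 reads of miR-129-1-3p per read of miR-129-2-3p with DMSO and 0.302 with AICAR, a ratio of the FCs of 2.85 (2.16 to 3.80, adjusted p = 4.8e-16, Fisher's exact test over 5 pairs of arms). This ratio rests on reads that can be assigned to a copy. Of the reads of miR-129-1-3p, 63 and 505 matched Mir129-1 only, and of those of miR-129-2-3p, 620 and 1686 matched Mir129-2 only. Tags of 18 and 19 nt stop before the base that differs and were counted for both copies, with 3 and 5 reads. A misread base could turn one copy into the other, so the other bases at position 20 were counted. A had 0 and 1 read and G had 0 and 1, beside 583 and 1569 reads with C and 57 and 443 with T. These counts do not measure a misreading of C as T, which was not tested.

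The 5p arm, which is the same in both copies, showed another pattern. MiR-129-5p had 148 and 169 reads (7.84 and 8.01 RPM, FC 1.02, 0.814 to 1.28, adjusted p = 0.902). There were 0.238 reads of miR-129-5p per read of miR-129-2-3p with DMSO and 0.0999 with AICAR (ratio of the FCs 0.421, 0.329 to 0.539, adjusted p = 4.6e-12), and 2.24 and 0.331 per read of miR-129-1-3p (0.148, 0.104 to 0.210, adjusted p = 2.0e-30). Both are Fisher's exact tests of these libraries. The reads of miR-129-5p were on short tags: 89.2% with DMSO and 77.5% with AICAR were under 21 nt, whereas at most 4.55% of those of either 3p arm were. The 20-nt tag had 105 and 107 reads and the 21-nt tag 12 and 34. With tags of at least 21 nt alone, miR-129-5p had 16 and 38 reads and an FC of 2.12. This passed both thresholds, but its unadjusted p of 0.00955 (Fisher's exact test) lay just under the limit of 0.01. Its ratio to miR-129-2-3p (0.878, adjusted p = 0.644) then no longer passed Fisher's exact test, whereas that to miR-129-1-3p (0.304) still passed.

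**Figure D4:**
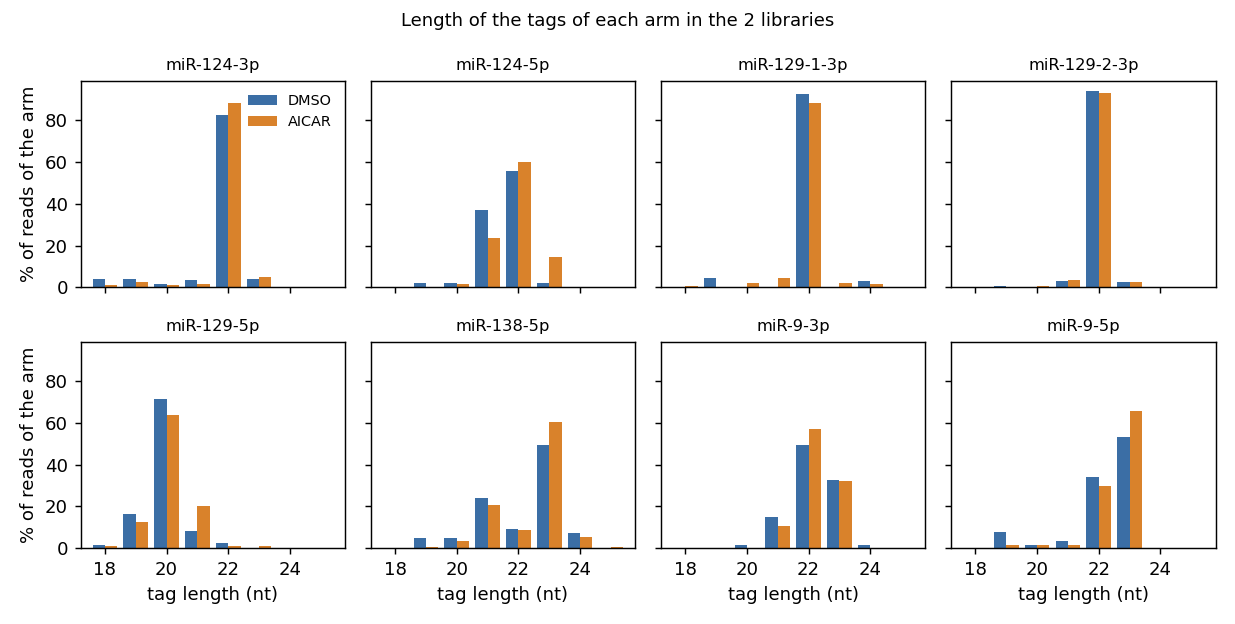
Percent of the reads of each of 8 arms by tag length in nt, DMSO and AICAR library. The 3p arms of miR-124 and miR-129 peak at 22 nt in both libraries, and miR-129-5p peaks at 20 nt. The share of tags under 21 nt is lower with AICAR for every arm except miR-129-2-3p (0.48% and 0.83%). Its 95% Wilson intervals lie apart for miR-124-3p and miR-9-5p, meet for miR-129-5p and overlap for the other arms.

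MiR-138 was read almost wholly from its 5p arm. Mir138-1 lies on chromosome 9 (122682876 to 122682974, plus strand, within an exon of the transcribed pseudogene Gm47135) and Mir138-2 on chromosome 8 (94324311 to 94324381, plus strand, within an exon of the lncRNA gene C78859). MiR-138-5p had 7.31 and 13.2 RPM, the latter from 278 reads, an FC of 1.80 (1.46 to 2.23, adjusted p = 2.1e-08, Fisher's exact test), which is under the fold threshold. Its 23-nt tag alone had 68 and 168 reads and an FC of 2.21, past both thresholds. Relative to miRNA reads the FC of the arm was 1.32, and 1.65 with TMM scaling. Its p was above 0.01 in edgeR's exact test at an assumed coefficient of variation of 0.2. The 3p arms differ between the copies and hardly appeared. MiR-138-1-3p had 2 reads with DMSO and 0 with AICAR, where the limit of 3 reads for a count of 0 is 0.142 RPM. MiR-138-2-3p had 1 and 5 reads (ratio 4.47, counting interval 0.501 to 212).

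The copies of miR-138-5p differ only after the 23-nt tag, and few reads reached that base, which is in capitals.
Mir138-1: agctggtgttgtgaatcaggccgT
Mir138-2: agctggtgttgtgaatcaggccgA
The tag of Mir138-1 had 7 reads with DMSO and 14 with AICAR, and that of Mir138-2 had 3 and 1. A T or an A added after the 23-nt tag would give the same sequences, so these counts do not fix the source. Of the other reads of the arm, 128 and 262 matched both hairpins and 0 and 1 further read matched Mir138-1. Other reads of single copies came from outside the arms: 6 and 4 reads on 4 tags just before the 5p arm of Mir138-1, and 0 and 1 read between the arms of Mir138-2. Among the hairpins searched, Mir138-1 thus had reads of its own in both libraries, at counts at which no difference between the libraries can be seen.

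MiR-9 was the only family with no arm higher with AICAR at p at most 0.01. Mir9-1 lies on chromosome 3 (88215598 to 88215686, plus strand, within an intron of the lncRNA gene Gm3764), Mir9-2 on chromosome 13 (83738814 to 83738885, plus strand, in an exon of C130071C03Rik) and Mir9-3 on chromosome 7 (79505264 to 79505353, plus strand, in an intron of Mir9-3hg). MiR-9-5p had 301 and 293 reads (15.9 and 13.9 RPM), an FC of 0.871 (0.739 to 1.03, adjusted p = 0.126). MiR-9-3p had 67 and 96 reads (3.55 and 4.55 RPM), an FC of 1.28 (0.929 to 1.78, adjusted p = 0.180, Fisher's exact test). With clean reads as the denominator the intervals of both folds include 1 and lie between 0.5 and 2. For miR-9-5p the other scales gave lower values that did not pass the fold threshold, with FCs of 0.639 relative to miRNA reads (p = 5.6e-08), 0.796 with TMM (p = 0.0057) and 0.785 with median-ratio scaling (p = 0.00336, each by Fisher's exact test). The ratio of their FCs was 0.680 (0.470 to 0.979, adjusted p = 0.0422). That ratio lost its call with identical tags, with tags of at least 21 nt, with 1 mismatch and with 3′ additions counted too.

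Short tags were more frequent with DMSO for miR-9-5p, as for all hairpin reads (9.49% and 3.81%). Its tags under 21 nt held 28 reads (9.30%, 6.51 to 13.1) with DMSO and 8 reads (2.73%, 1.39 to 5.29) with AICAR. Without them the FC was 0.934, still below 1. With the 21-nt and 22-nt tags left out as well, the 23-nt tag had 160 and 192 reads and an FC of 1.07. An 18-nt tag that ended beyond the limits and was not counted had a further 27 and 14 reads.

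The start of miR-9-3p differed from the RefSeq start. The most abundant start lay 1 base downstream and held 71.6% (59.9 to 81.0) of the reads with DMSO and 71.9% (62.2 to 79.9) with AICAR. The RefSeq start held the remaining 28.4% and 28.1%, with 19 and 27 reads, so both libraries gave the same split within counting error. The seed differs between the starts, as the capitals show.
most abundant start: tAAAGCTAgataaccgaaagta
RefSeq mature miR-9-3p: aTAAAGCTagataaccgaaagt
The exact RefSeq sequence had 7 and 6 reads. The most abundant tag had 26 and 49.

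Tags of miR-9 did not single out a copy. All 7 tags of miR-9-5p matched the 3 hairpins. For miR-9-3p a 23-nt tag ending in an A that Mir9-3 lacks (in capitals) had 10 reads in each library.
Mir9-1 and Mir9-2: taaagctagataaccgaaagtaA
With a 24-nt tag of 1 and 0 reads, tags of this kind held 11 of the 67 and 10 of the 96 reads of the arm. An A added after the 22-nt tag would give the same sequence, so these reads point to Mir9-1 or Mir9-2 only if the A was transcribed. No tag matched Mir9-3 alone. Mir129-1, Mir129-2 and Mir138-1 thus had more than 3 reads of their own in each library. For Mir138-1 this rests on 6 and 4 reads of short tags before the 5p arm, since its 24-nt tag does not fix the source. No genome was searched for other matches of these short tags. Mir138-2 had only 1 read with DMSO outside its 24-nt tag, which is under the limit of 3 reads. For the 3 hairpins of miR-9 and the 3 of miR-124 detection holds for the family and not for a single gene. Mir129b, the hairpin on the strand opposite to Mir129-2, had no reads.

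Other hairpins near the members were hardly read. Mir3078, 444 nt from Mir124a-1 and in the same host gene Mir124a-1hg, gave miR-3078-5p with 37 and 47 reads (1.96 and 2.23 RPM, FC 1.14, 0.723 to 1.80). Mir670, in Mir670hg with Mir129-2, gave 2 and 4 reads of its 3p and 1 and 2 of its 5p arm, far below miR-129-2-3p. Mir3093, next to Mir9-1 within Gm3764, had no reads. No tag counted for a member, with or without added bases, was found in a GENCODE transcript other than those of its own hairpins and host genes.

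The tested miRNAs nearest in level to the most abundant arm of each family, by the distance of log2 RPM over the 2 libraries, were miR-378a-3p (264.3 and 429.8 RPM), miR-291b-5p and miR-29a-3p for miR-124-3p. For miR-129-2-3p they were miR-125a-5p (41.6 and 67.6 RPM), miR-196a-5p and miR-30c-5p, at distances of 0.41 to 0.47, and for miR-9-5p they were miR-1968-5p (16.4 and 14.5 RPM), miR-342-5p and miR-409-5p. For miR-138-5p they were miR-34b-5p (7.42 and 11.8 RPM), miR-465c-3p and miR-465-3p. This likeness describes 2 libraries only.

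Of a list of 19 other hairpins of neural miRNAs, 31 arms had reads and 10 reached 1 RPM. Of these 10, 2 were up-regulated and 1 down-regulated with AICAR, and the median FC was 1.21. Of the 2, miR-7b-5p reached 1 RPM only with AICAR (0.265 and 1.04 RPM), so the limit on level favoured its direction. Among all 529 miRNAs tested, 11.9% were up-regulated and 9.45% down-regulated, with a median FC of 1.11. MiR-135b-5p had 48 and 150 reads (FC 2.80, 2.01 to 3.95) and miR-7b-5p 5 and 22 (3.94, 1.46 to 13.3), and miR-219a-2-3p had 180 and 100 (0.497, 0.385 to 0.638). MiR-128-3p was the most abundant at 976.4 and 995.8 RPM (FC 1.02), and miR-7-5p had 143.9 and 175.8 RPM (1.22). MiR-212-5p had an FC of 1.47, miR-219a-1-3p 1.61, miR-219a-1-5p 1.20, miR-219a-2-5p 0.725 and miR-7-1-3p 0.712, none past the thresholds. Arms of miR-132, miR-137, miR-153 and miR-218, which are also made in neurons, stayed under 1 RPM in both libraries.

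The libraries carried the miR-290 cluster, which marks mouse ES cells, whereas no listed arm of miR-302 was above 7.79 RPM in either library. Of 11 listed ES cell hairpins of the miR-290 cluster and miR-302, 10 were found by symbol. Mir292a was not, so the arms of miR-292 are not in the sums. The 10 together had 31376 RPM with DMSO and 54521 RPM with AICAR, against 330.6 and 555.0 RPM for the 4 neural families. Of the 16 arms of this list with at least 1 RPM, 4 were up-regulated and 2 down-regulated, beside 11.9% and 9.45% of all 529 miRNAs. The 4 were the arms of miR-291a and miR-291b, and the 2 were miR-302a-5p (7.79 and 1.33 RPM) and miR-302a-3p. MiR-302a-3p reached 1 RPM only with DMSO (1.38 and 0.52 RPM), so the limit on level favoured its direction. Of the fibroblast markers, miR-199a-3p, whose reads also fit miR-199b-3p, had 91.9 and 90.9 RPM, their 5p arms had 4 to 12 reads, and Mir214 had no reads, which allows up to 0.159 and 0.142 RPM. Fewer cells of a type and less RNA per cell cannot be told apart in bulk RNA, and the part of these lists in the neural values was not tested.

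**Figure D5:**
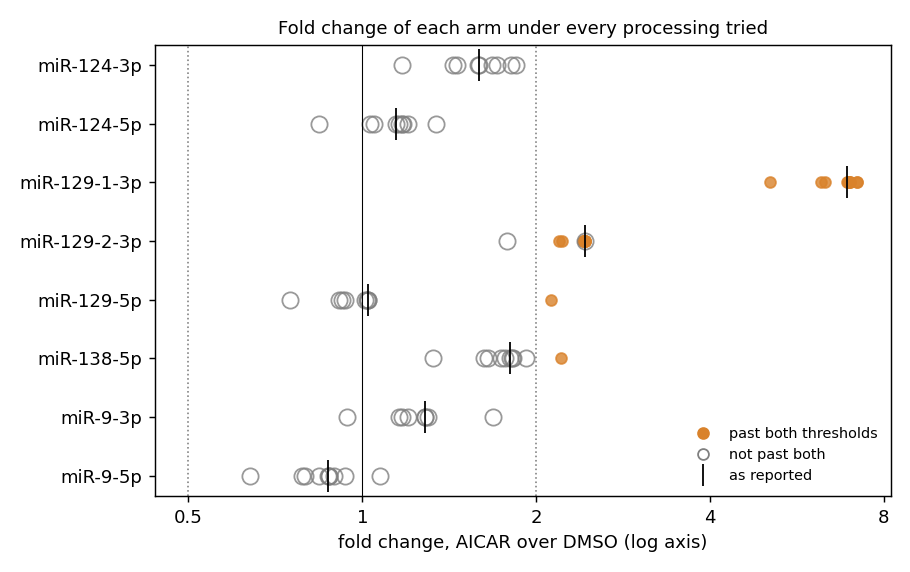
Fold change (AICAR over DMSO, log axis) of the 8 tested arms as reported (black bars) and under every other processing tried (circles, filled where past both thresholds). MiR-129-1-3p is past the thresholds throughout (5.07 to 7.19). MiR-129-2-3p has 1 open circle at 1.78 and 1 at the reported fold, and miR-129-5p and miR-138-5p each have 1 filled circle.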

How the data were processed

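Small RNA of 18 to 30 nt from J1 ES cells was sequenced, with 1 library per condition. The authors removed low-quality and contaminant reads and deposited the count of clean reads of each distinct tag, not normalized, with its length and sequence. The submitters' notes name the build mm9, and a genome was not used here. Tags were matched without mismatch to 1174 GENCODE vM21 hairpins (GRCm38, Python 3.11.15). Each arm was counted around its most abundant tag (start within 2 nt, end within 4 nt), and copies with the same tag were merged. MiRNAs with at least 1 RPM in a library were tested by Fisher's exact test (scipy 1.17.1) with Benjamini-Hochberg (BH) adjustment over 529 miRNAs. Pairs of arms with at least 10 reads each were tested likewise, adjusted over the 5 pairs. Shares have 95% Wilson intervals, folds exact binomial intervals, levels Poisson intervals, and 3 reads were the detection limit. TMM and an exact test with assumed dispersion used edgeR 4.0.16.

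The text names every member arm with reads, the neural list, hairpins within 50 kb or in the same host gene, and the 3 miRNAs nearest in level. Members and lists were chosen with earlier results of these data known. The control is titled as untreated in abbreviated form but labelled DMSO, and the treatment label was used. The authors' p threshold of 0.05 in the methods was an alternative to 0.01. The steps were tested on simulated data.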

Additional observations from a re-analysis of the deposited data

Results flagged for a closer look

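Reads with 1 to 3 bases added at the 3′ end lie outside the counts of the comparison, and for a pair of arms they were higher with AICAR than with DMSO (Fisher's exact test of the libraries, p at most 0.01). MiR-124-3p had 3936 such reads with DMSO and 9461 with AICAR, an FC of 2.15 (2.07 to 2.23) beside 1.59 for its exact reads. MiR-129-1-3p had 2 and 17, an FC of 7.60 (1.80 to 67.9) beside 6.91 for its exact reads. The shares with an addition were 45.0% and 52.4% for miR-124-3p, and 2.94% and 3.23%, with overlapping intervals, for miR-129-1-3p. This test was run for the member arms only, so no share over all miRNAs can be set beside these arms. Of 322 miRNAs with at least 100 reads in each library, 255 had a higher share with an addition with AICAR.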

How the results depend on the processing

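No paired analysis was possible because each condition has 1 library, and for the same reason no replicate could be left out. The screen of tags against a genome was not run, as no genome sequence was used. Of 217 recomputed values, 191 kept their direction and side of the thresholds or, for counts, stayed within 1.5 times. MiR-129-1-3p stayed past the thresholds under all 19 alternatives. Some of them left its counts and fold unchanged and so could not move its call. These were the other limits on p and level, the RefSeq reference and the screen against other transcripts. Such values are also among the 217. Relative to reads assigned to miRNAs, 22 miRNAs were up-regulated and 114 down-regulated. MiR-129-2-3p then had an FC of 1.78, and miR-124-5p (0.840), miR-129-5p (0.750) and miR-9-3p (0.941) fell below 1. MiR-129-5p also fell below 1 with TMM (0.934), with median-ratio scaling (0.921) and with identical tags (0.912), all within its interval. With identical tags miR-138-5p rose to 2.21 and miR-9-5p to 1.07. With tags of at least 21 nt miR-129-5p had an FC of 2.12, its ratio to miR-129-2-3p was 0.878, and 30 miRNAs were down-regulated. Over miRNAs of at least 10 RPM, 27 were up-regulated and 27 down-regulated. Where edgeR's exact test took the coefficient of variation to be 0.2, 37 were up-regulated, and at 0.4 only 5 were, with 6 down-regulated. At 0.4 miR-129-2-3p (2.43, edgeR exact test p = 0.132) was no longer called. The ratio of miR-124-3p to miR-124-5p passed the test with 1 mismatch (1.54) and with 3′ additions (1.59), and that of miR-9-5p to miR-9-3p no longer did with identical tags (0.637), tags of at least 21 nt (0.718), 1 mismatch (0.743) or 3′ additions (0.729). The counting of additions and a screen against other transcripts were chosen after seeing the data. For the other values that moved the cause was not tested. Depth limits the miR-138 3p arms and all copy-specific tags except those of miR-129, which hold too few reads to compare.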
